A study of Mus musculus with 16 samples.

Results

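The genes described here are the 3 D-type cyclins (Ccnd1, Ccnd2, Ccnd3), 6 inhibitors of cyclin-dependent kinases (Cdkn1a, Cdkn1b, Cdkn2a, Cdkn2b, Cdkn2c, Cdkn2d) and the retinoblastoma gene Rb1 in cultured mouse male germline stem cells. They were chosen by symbol, and all 10 were found among the 27128 genes of each deposited table. Of these, 9 passed a filter of a mean of at least 1 CPM (read counts scaled by library size and TMM factor) over the 12 RNA libraries, as did 14301 genes in all. Cdkn2c did not pass and is described by its reads.

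D-type cyclins bind the kinases CDK4 and CDK6 when growth factors are present, and the complexes phosphorylate the RB protein encoded by Rb1. Phosphorylated RB releases E2F transcription factors, and the cell passes from G1 into S phase. INK4 proteins (p16 from Cdkn2a, p15 from Cdkn2b, p18 from Cdkn2c and p19 from Cdkn2d) bind CDK4 and CDK6 and keep the cyclins away, while the CIP/KIP proteins p21 (Cdkn1a) and p27 (Cdkn1b) bind assembled cyclin and kinase complexes. Cdkn2a also encodes ARF in another reading frame, which stabilizes p53, and Cdkn1a is a classical p53 target. In cultured spermatogonial stem cells, cyclin D2 is known to act downstream of GDNF.

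The cells came from mice at postnatal day 5.5 (B6;CBA-Tg(Pou5f1-EGFP)2Mnn/J), which carry EGFP under the promoter of Pou5f1 (Oct4). GFP-positive germ cells without KIT were sorted and cultured in serum-free StemPro-34 with GDNF, bFGF and EGF, so every library shares the reporter, the medium and these growth factors. The feeder-removal experiment had cells on mouse embryonic fibroblast (MEF) feeders at day 0 and cells 4 and 9 days after the move to Matrigel, a basement membrane extract. The density experiment had cells described as epithelial-like, grown on 0.1 µg/cm2 of Matrigel, and cells described as mesenchymal-like, grown on 10 µg/cm2. The sort experiment took cells from Matrigel at 10 µg/cm2 and divided them by GFP into low, mid and high fractions. The inhibitor experiment had cells on MEF given DMSO, the solvent, or UNC0638, an inhibitor of the histone methyltransferase G9a, at 0.5, 1 or 2 µM, with a treatment of 48 hours. Each of the 12 groups had 1 library, so the spread between replicates is unknown and p-values are not given. The labels name no number of animals or cultures behind a library.

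Library totals ran from 4335185 to 12019651 counts, and a floor of 3 counts stood for 0.238 to 0.724 CPM. Germ-cell markers were present throughout: Ddx4, an RNA helicase of the germ line, had 416 to 870 CPM, and the 19 germ-cell markers found summed to 5086 to 8018 CPM. A list of 20 fibroblast markers summed to 148 to 416 CPM in 7 libraries, and to 508 to 6945 CPM in the mesenchymal-like library and the 4 libraries of the inhibitor experiment. A list of 12 myeloid markers summed to 226 to 1916 CPM in the 3 sorted fractions and to 10.2 to 47.6 CPM elsewhere. In bulk RNA, fewer cells of a type and less RNA per cell cannot be told apart. Groups were not shared between experiments, so a technical batch and an experiment cannot be told apart either.

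On the length-scaled TPM scale, Ccnd2 and Ccnd3 were the most abundant of the 10 genes in 11 of 12 libraries. Ccnd2 ranged from 120.78 TPM at day 0 to 297.49 TPM in GFP-low, and Ccnd3 from 166.43 TPM in GFP-high to 306.91 TPM at day 9. In the mesenchymal-like library Cdkn1a stood between them, at 278.77 TPM against 288.49 for Ccnd2 and 247.90 for Ccnd3. The genes that varied most were Cdkn1a (29.01 to 278.77 TPM), Ccnd1 (17.03 to 171.17), Cdkn2b (13.27 to 120.51) and Cdkn2a (0.74 to 21.22), and each of these was highest in the mesenchymal-like library. Rb1 (10.25 to 18.19 TPM), Ccnd3 and Cdkn2d (25.35 to 49.49 TPM) varied least. Cdkn1b stayed between 0.86 and 2.86 TPM and Cdkn2c between 0 and 2.67 TPM.

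**Figure D1:**
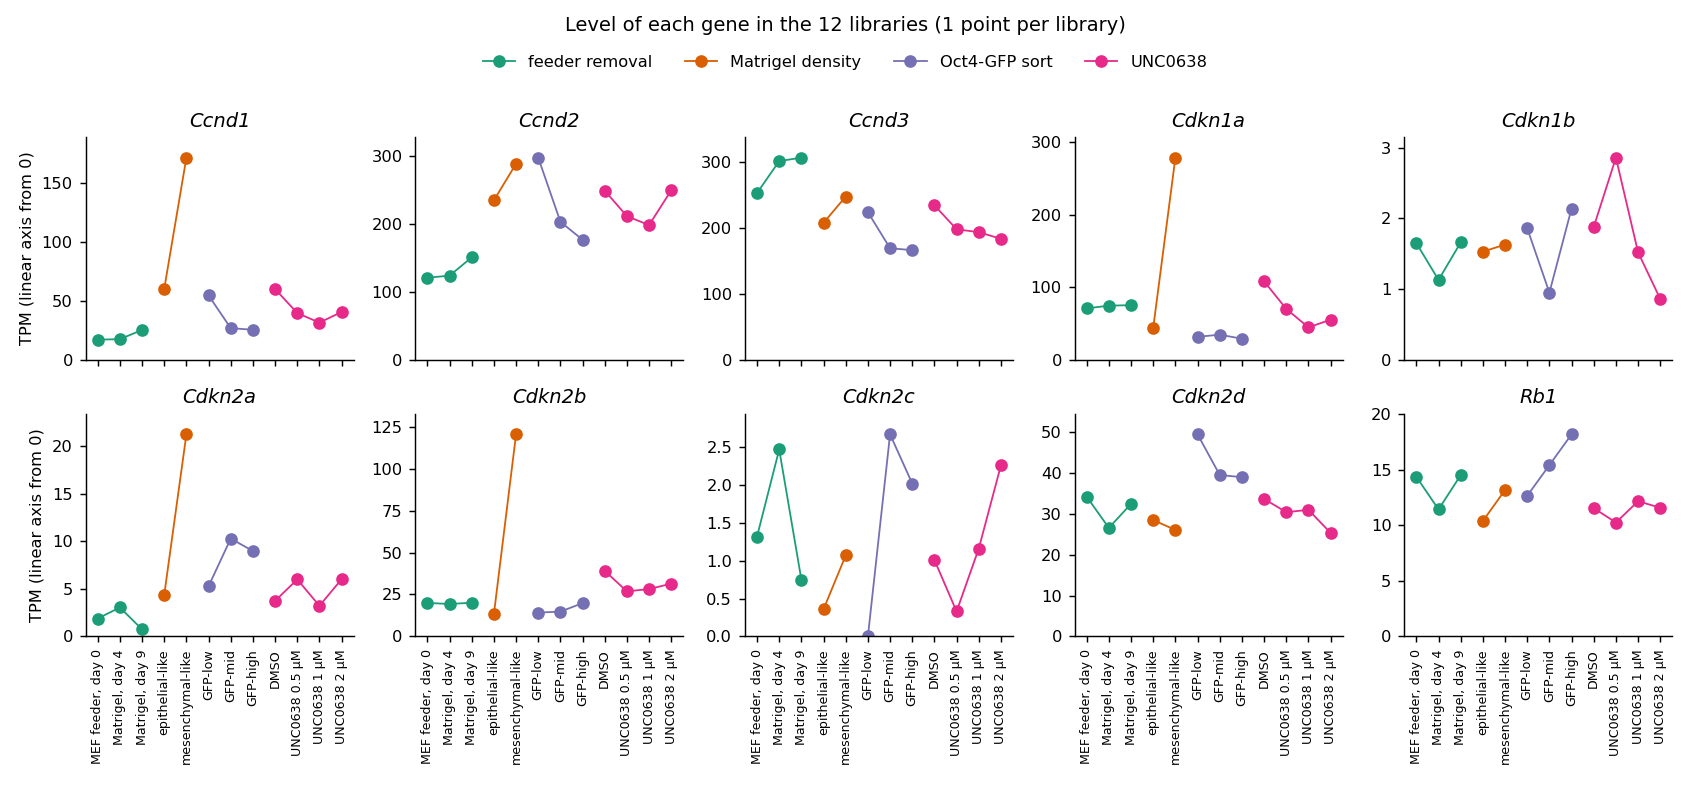
TPM of each of the 10 genes (vertical axes, linear from 0, scaled per gene) in the 12 libraries (horizontal axes), 1 point per library, with lines joining libraries of 1 experiment. Ccnd1, Cdkn1a, Cdkn2a and Cdkn2b peak in the mesenchymal-like library, at 171.17, 278.77, 21.22 and 120.51 TPM, while Rb1 stays between 10.25 and 18.19 TPM.

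The 3 cyclins divided their summed TPM differently between the experiments. Ccnd3 took the largest share in the feeder-removal experiment, with 64.8%, 68.1% and 63.6% at days 0, 4 and 9, and Ccnd2 took the largest share in the other 9 libraries, with 40.8% to 52.7%. Ccnd1 had the smallest share in all 12 libraries. It held 4.36%, 3.93% and 5.23% at days 0, 4 and 9, 11.9% in the epithelial-like and 24.2% in the mesenchymal-like library. The mesenchymal-like library thus had the largest Ccnd1 share, and these are transcript shares, not amounts of protein.

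Among the 6 inhibitors described here, Cdkn1a or Cdkn2d had the highest TPM in every library. Cdkn1a led in 9 libraries, and Cdkn2d led in the 3 sorted fractions, with 49.49, 39.53 and 39.00 TPM against 31.61, 34.60 and 29.01 for Cdkn1a. The summed TPM of the 6 inhibitors, divided by the summed TPM of the 3 cyclins, was 0.332, 0.287 and 0.271 at days 0, 4 and 9. It was 0.183 in the epithelial-like library and 0.635 in the mesenchymal-like library, the lowest and highest values outside the sort being these 2. From GFP-low through GFP-mid to GFP-high it was 0.178, 0.258 and 0.274. In the inhibitor experiment the ratio was 0.345 with DMSO, and 0.304, 0.260 and 0.256 at 0.5, 1 and 2 µM. Cdkn1c, which encodes the CIP/KIP inhibitor p57, is outside the 6 genes and these sums. It had 16.75, 20.5, 64.95 and 36.3 TPM from DMSO to 2 µM, and 7.76, 61.91 and 88.13 TPM from GFP-low to GFP-high. At 1 µM, in GFP-mid and in GFP-high it stood above each of the 6. With Cdkn1c added, the 1 µM ratio would stand above that of DMSO, and the differences in the sort would be larger.

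**Figure D2:**
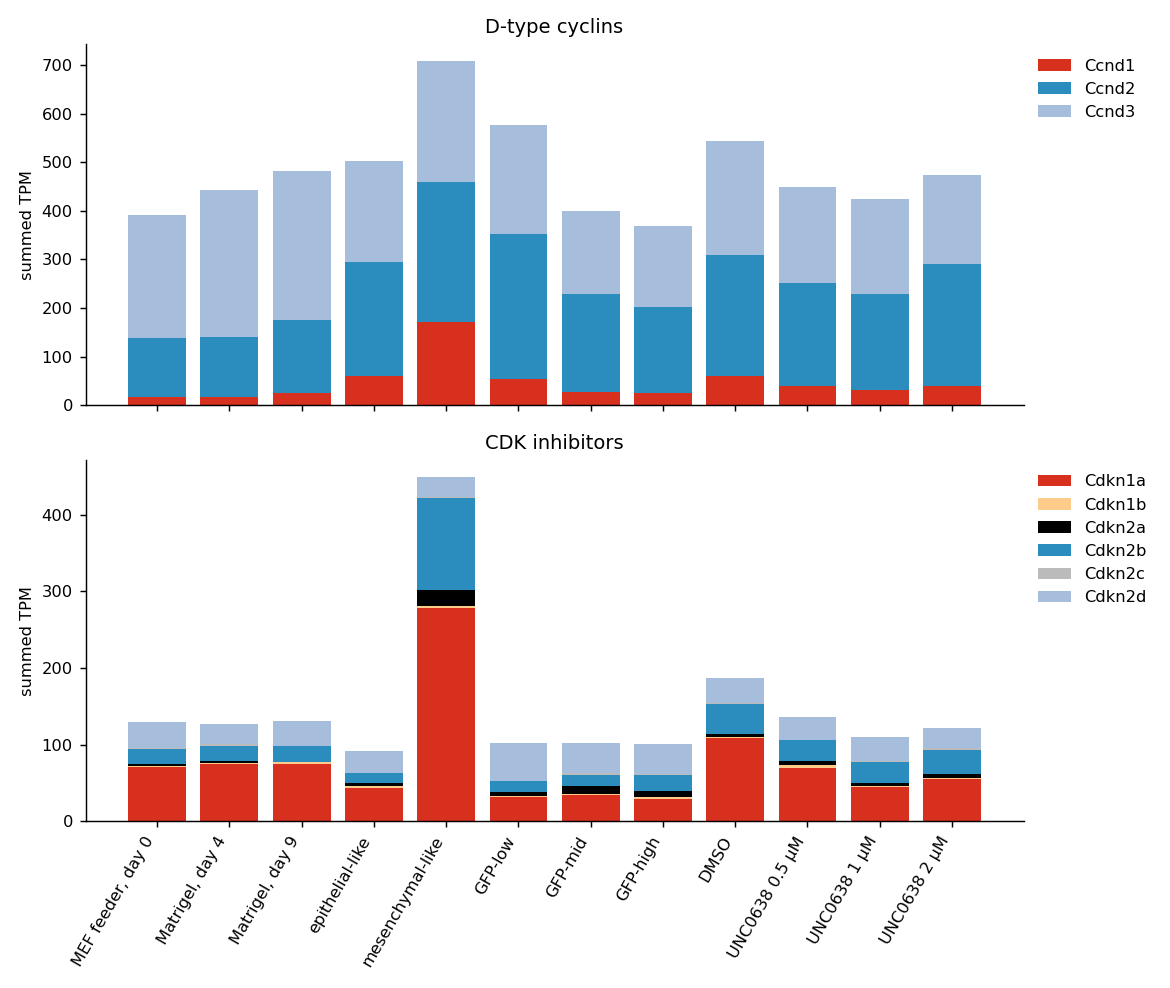
Summed TPM (vertical axes, linear from 0) of the 3 D-type cyclins (upper bars) and the 6 inhibitors (lower bars) in the 12 libraries, with each color standing for 1 gene. In the mesenchymal-like library the inhibitors reach 449.27 TPM, against 92.03 TPM in the epithelial-like library, while the cyclins stand at 707.56 and 502.64 TPM.

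After removal of the feeders, none of the 9 filtered genes passed 2-fold on the scale used here. For each comparison a log2 ratio of CPM + 1 was taken between 2 libraries, and a gene was called at 2-fold or more (1 on the log2 scale); the added 1 understates changes of low genes. At day 4, 0 of 9 genes were called, where 2.28% of all 14301 genes were, and at day 9, 0 of 9, where 2.6% were. Both ratios share the day 0 library.

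Ccnd1 had 38.4, 38.8 and 52.2 CPM at days 0, 4 and 9, with a log2 ratio of 0.44 at day 9. The 95% interval of that ratio, from the exact binomial split of the reads (Clopper-Pearson), was 0.24 to 0.65. Intervals of this kind cover counting error only. They assume independent reads, and reads of amplified cDNA are not independent molecules, so they may be too narrow even for that. Ccnd2 had 420, 426 and 481 CPM, and Ccnd3 had 287, 339 and 320 CPM. At day 9 all 3 cyclins stood above day 0, by amounts well under 2-fold. At day 4 the intervals of Ccnd1 (-0.20 to 0.23) and Ccnd2 (-0.04 to 0.09) held 0, and the sign of both ratios turned with DESeq2 size factors (-0.02 and -0.01) and with germ-cell centring (-0.04 for both).

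Cdkn1a had 77.0, 80.1 and 75.1 CPM at days 0, 4 and 9, and Cdkn2b had 14.0, 13.4 and 12.9 CPM. Rb1 had 39.3, 31.0 and 36.4 CPM, and its interval at day 4 lay below 0 (log2 ratio -0.33, -0.57 to -0.12). Cdkn2d had 19.7, 15.1 and 17.2 CPM, and its interval at day 4 also lay below 0 (-0.37, -0.71 to -0.07). Cdkn2a had 7, 17 and 4 counts (0.908, 1.44 and 0.325 CPM), and its ratio at day 9 (-0.53) passed 2-fold with a pseudocount of 0.1 (-1.24), with a counting interval that holds 0. Cdkn1a and Cdkn2b thus differed little, and Cdkn2a was read too thinly to compare. Of 28 partners of the G1 to S transition, a list of the kinases, cyclins, RB relatives, E2F factors and regulators around the 10 genes, 1 was called at each time. E2f2, an activating E2F, was lower at day 4 (5.44 to 2.12 CPM, log2 ratio -1.05, named after its values were seen), and Cdkn1c, which encodes the third CIP/KIP inhibitor p57, was lower at day 9 (56.1 to 18.9 CPM, -1.52).

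In the Matrigel density comparison, Ccnd1, Cdkn1a, Cdkn2a and Cdkn2b were at least 2-fold higher in the mesenchymal-like library, 4 of 9 genes, where 12.5% of all genes were called and 10.7% were called higher. The median log2 ratio of the 9 genes was 0.39, and that of all genes was -0.06.

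Cdkn2b, whose product p15 is known as a target of TGF-beta signaling, had 10.3 CPM (44 counts) in the epithelial-like library and 96.6 CPM (400 counts) in the mesenchymal-like library. Its log2 ratio was 3.11, with a counting interval of 2.77 to 3.71. Cdkn1a had 52.8 and 346 CPM, a log2 ratio of 2.69 (2.51 to 2.92). These are the inhibitors with the largest ratios, and each had been at a similar or higher level in the other libraries than in the epithelial-like one, except that Cdkn1a was lower in the sorted fractions and at 1 µM UNC0638, and Cdkn2b was lower in GFP-low and GFP-mid.

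Cdkn2a had 10 counts (2.35 CPM) in the epithelial-like and 46 counts (11.1 CPM) in the mesenchymal-like library, a log2 ratio of 1.85 with a wide interval of 1.24 to 3.39. Ccnd1 had 149 and 442 CPM, a log2 ratio of 1.56 (1.44 to 1.70). Ccnd1 is the D-type cyclin best known as a target of growth factor and adhesion signals. So a cyclin and 3 inhibitors of cyclin-dependent kinases were higher in the same library.

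The other members differed less. Ccnd2 had 895 and 1149 CPM (log2 ratio 0.36, 0.30 to 0.42) and Ccnd3 had 261 and 322 CPM (0.30, 0.19 to 0.42). Rb1 had a log2 ratio of 0.39 (0.07 to 0.74), Cdkn1b of 0.11 (-1.05 to 1.36) and Cdkn2d of -0.09 (-0.58 to 0.39). The intervals of Cdkn1b and Cdkn2d hold 0, so no difference was detectable at this depth.

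**Figure D3:**
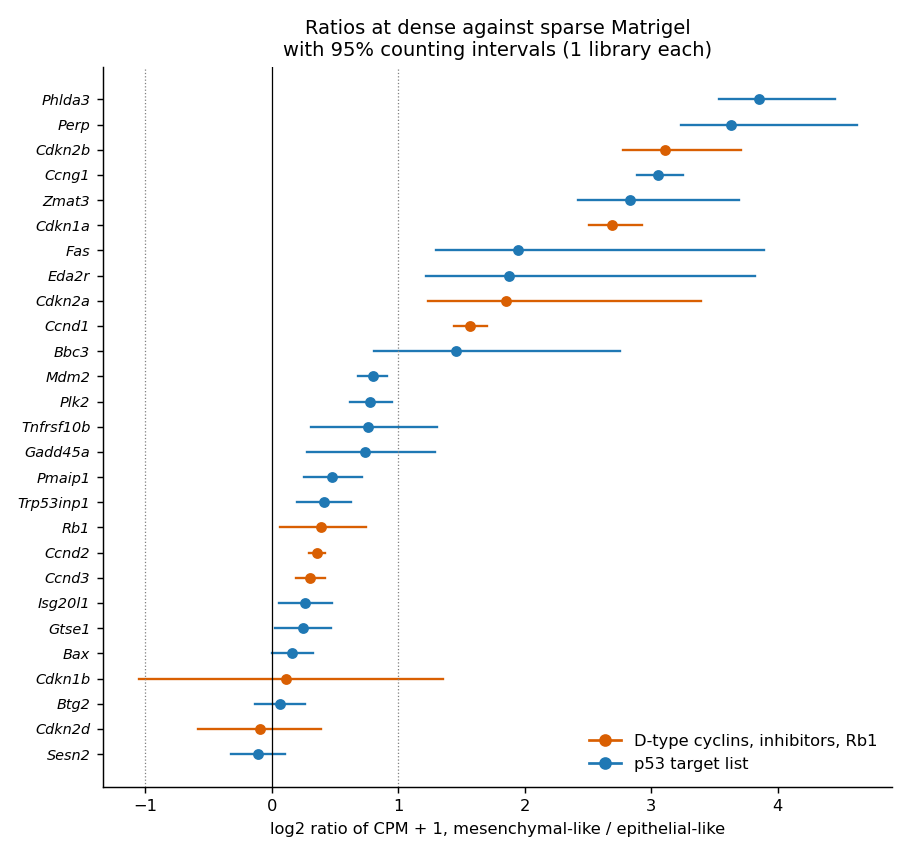
Log2 ratio of CPM + 1 between the mesenchymal-like and epithelial-like libraries (horizontal axis) for the 9 filtered genes and the 18 genes of a p53 target list (vertical axis, sorted), with dots for ratios and bars for 95% counting intervals computed without the added 1. Cdkn2b, at 3.11, lies among Phlda3, Perp, Ccng1 and Zmat3, at 2.83 to 3.85, and Cdkn1a, at 2.69, lies just below them.

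The transcription start regions of the 3 inhibitor genes that were higher on dense Matrigel are shown because they are the places where transcripts of these genes begin. The RefSeq promoter table of GRCm38.p6, the same assembly as mm10, held 11 windows for 7 of the 10 genes; Ccnd1, Ccnd2 and Rb1 had no entry. In RefSeq, Cdkn2a (chr4:89274473-89294619) and Cdkn2b (chr4:89306289-89311032) are neighbours on the minus strand, and Cdkn1a lies at chr17:29090979-29100722 on the plus strand. Each sequence is the 100 bases before an annotated start, 5′ to 3′ on the gene's strand. Capitals mark a p53 element in the first Cdkn1a window, a cAMP response element in Cdkn2b and an E2F element in the first Cdkn2a window. The first Cdkn2a start is the distal one, that of the ARF transcript, and the second is that of p16.
Cdkn1a, start 1, chr17:29090879-29090978, plus strand: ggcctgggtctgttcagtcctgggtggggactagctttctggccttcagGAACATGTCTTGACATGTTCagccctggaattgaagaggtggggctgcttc
Cdkn1a, start 2, chr17:29093669-29093768, plus strand: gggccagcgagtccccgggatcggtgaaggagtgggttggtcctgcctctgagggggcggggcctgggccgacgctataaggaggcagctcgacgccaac
Cdkn2b, chr4:89311033-89311132, minus strand: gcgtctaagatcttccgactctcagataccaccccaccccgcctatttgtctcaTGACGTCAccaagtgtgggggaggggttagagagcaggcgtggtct
Cdkn2a, start 1, chr4:89294620-89294719, minus strand: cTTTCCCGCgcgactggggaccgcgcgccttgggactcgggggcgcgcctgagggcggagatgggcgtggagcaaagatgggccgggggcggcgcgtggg
Cdkn2a, start 2, chr4:89282193-89282292, minus strand: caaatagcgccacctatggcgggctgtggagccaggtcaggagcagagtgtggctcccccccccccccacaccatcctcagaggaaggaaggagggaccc

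Motifs were searched on both strands in windows of 300 bases, from 250 before to 50 after a start. The p53 search used CATG, 6 bases of any kind and CATG again, the centres of 2 adjoining half-sites, and 0.712% of all 32851 windows held it. Among the 11 windows of the members, only Cdkn1a start 1 did, with the match beginning at position -48 from the start. TGACGTCA was in 1.790% of all windows and in that of Cdkn2b, at -46. TTTCCCGC was in 1.068% of all windows and TTTGGCGC in 0.514%, and of the members only Cdkn2a start 1 held either, at -99. The Sp1 motif GGGCGG was in 35.658% of all windows and in 9 of the 11; it does not overlap the other marks. A match in letters is a description and does not show that a factor was bound, and the ATAC-seq libraries of the series were not analysed here.

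A list of 18 p53 targets was set beside Cdkn1a. In the mesenchymal-like library 7 of 18 were at least 2-fold higher and 0 were lower, with a median log2 ratio of 0.77 against -0.06 for all genes. Phlda3, a repressor of AKT, had 10.3 and 163 CPM (log2 ratio 3.85), and Perp, a membrane protein of desmosomes, had 4.69 and 69.5 CPM (3.63). Ccng1, which encodes cyclin G1, had 66.0 and 553 CPM (3.05), and Zmat3, an RNA-binding protein, had 5.87 and 47.8 CPM (2.83). Mdm2, the ubiquitin ligase of p53, named after its values were seen, had 232 and 404 CPM and a log2 ratio of 0.80, short of 2-fold.

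Of the 28 partners of the G1 to S transition, 4 were higher and 0 lower in the mesenchymal-like library, with a median log2 ratio of -0.14. Cdk6, a partner kinase of the D-type cyclins, had 6.34 and 21.7 CPM (log2 ratio 1.63), and Cdkn1c had 15.5 and 86.4 CPM (2.41). Myc, a growth-promoting transcription factor, had 6.10 and 42.7 CPM (2.62), and Rbl2, which encodes the RB relative p130, had 2.58 and 11.3 CPM (1.79, named whatever its depth). Cdk4 differed little, with a log2 ratio of 0.15 (0.04 to 0.26). Among 20 proliferation genes such as Mki67 and Pcna, 0 were called and 20 of 20 had ratios below 0, with a median of -0.32.

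Lists of cell-type markers moved with this comparison, and bulk RNA does not show which cells the transcripts came from. The fibroblast list summed to 335 CPM in the epithelial-like and 6945 CPM in the mesenchymal-like library, 18 of its 19 tested genes were at least 2-fold higher, and 1 of 20 was at 0 in each library. The germ-cell list summed to 6405 and 5086 CPM, with 0 of 19 called. The myeloid list summed to 23.7 and 47.6 CPM. Their part in the higher Ccnd1, Cdkn1a, Cdkn2a and Cdkn2b was not tested.

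**Figure D4:**
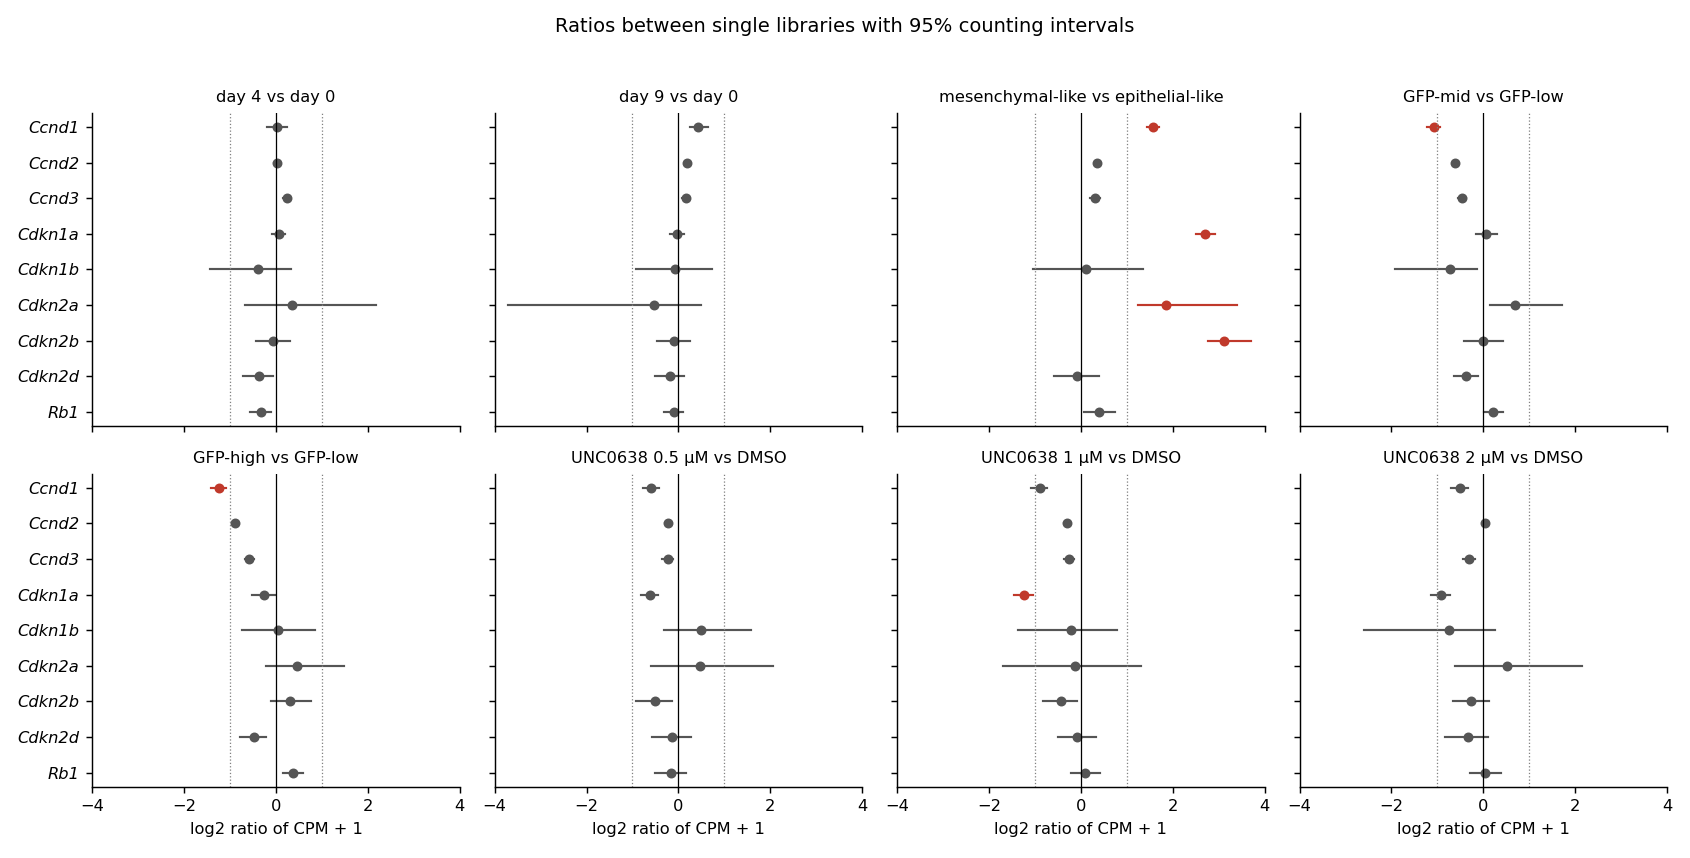
Log2 ratios of CPM + 1 (horizontal axes) of the 9 filtered genes (vertical axes) in the 8 comparisons within experiments, with dots for ratios, bars for 95% counting intervals computed without the added 1 and cut at the panel edge, dotted lines at 2-fold and red for genes past it. Red genes are Ccnd1, Cdkn1a, Cdkn2a and Cdkn2b between the Matrigel densities, Ccnd1 in both sorted comparisons, and Cdkn1a at 1 µM UNC0638.

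In the cells sorted by Oct4-GFP, all 3 D-type cyclins were lower in GFP-mid and GFP-high than in GFP-low, and only Ccnd1 passed 2-fold. This was 1 of 9 genes in each comparison, where 4.07% of all genes were called in GFP-mid and 9.54% in GFP-high; 0.685% and 2.59% were called lower. The share called in GFP-high is thus close to that of all genes. The GFP-low library is shared by both ratios.

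Ccnd1 had 124 CPM in GFP-low, 58.1 in GFP-mid and 51.8 in GFP-high. The log2 ratios were -1.07 (-1.23 to -0.95) and -1.24 (-1.41 to -1.10), so most of the difference lay between low and mid. Centred on the germ-cell list, the GFP-mid ratio was -0.86 and no longer passed 2-fold, and from the deposited TPM it fell just short. Ccnd2 had 1042, 681 and 557 CPM, with ratios of -0.61 (-0.66 to -0.57) and -0.90 (-0.95 to -0.85). Ccnd3 had 254, 185 and 170 CPM, with ratios of -0.46 (-0.55 to -0.38) and -0.58 (-0.68 to -0.49). The 3 cyclins had 1 order, low above mid above high, and the size of the difference was largest for Ccnd1 and smallest for Ccnd3.

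Of the inhibitors that passed the filter, Cdkn2d had that order too. It had 28.2, 21.6 and 19.96 CPM, short of 2-fold, with ratios of -0.37 (-0.64 to -0.12) and -0.48 (-0.79 to -0.21). Cdkn1a had 34.4, 36.0 and 28.3 CPM, the lowest levels of this gene in the series, and Cdkn2b had 9.91, 9.90 and 12.4 CPM. Cdkn2a had 20, 59 and 36 counts (2.51, 4.67 and 3.82 CPM), and its interval in GFP-mid lay above 0 (log2 ratio 0.69, 0.14 to 1.71). Rb1 had 34.9, 40.6 and 45.1 CPM, with a ratio of 0.36 (0.15 to 0.60) in GFP-high, the highest Rb1 level of the 12 libraries.

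Cdkn2c, which encodes p18, had 0, 19 and 10 counts in the 3 fractions. Set against the floor of 3 counts in the GFP-low library, GFP-mid stood at 4.00-fold and GFP-high at 2.82-fold. The counting intervals of the 2 log2 ratios began lower, at 1.56 and 0.92. The counts are small numbers of reads, and the gene was outside the filter. Of the 28 G1 to S partners, 1 was higher and 1 lower in GFP-mid, and 3 were higher and 0 lower in GFP-high.

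Cdkn1c had 8.15, 62.3 and 83.2 CPM in the 3 fractions (log2 ratios 2.79 and 3.20), the largest difference among these partners. Cdk6 had 0.878 and 6.79 CPM in GFP-low and GFP-high (2.05), and E2f6, a repressive E2F, had 43.4 and 95.2 CPM (1.12). Myc was the lower gene in GFP-mid, at 3.51 and 1.11 CPM (-1.10), and it is named after its values were seen. Of the p53 list, 3 of 18 were higher in each comparison, and 0 and 1 were lower. Phlda3, Bbc3 and Gadd45a were the higher genes in both, and Pmaip1 was the lower gene in GFP-high. Phlda3 had 4.26, 13.1 and 13.3 CPM while Cdkn1a itself was not called.

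Other lists moved with the sort. The proliferation list had 0 of 20 genes called, with medians of -0.28 in GFP-mid and -0.33 in GFP-high and 19 and 18 genes below 0. Mki67 went the other way, with 67.7, 102 and 130 CPM from GFP-low to GFP-high, while Pcna had 292, 248 and 214 CPM. The myeloid list summed to 1916, 1738 and 226 CPM, with 0 of 12 markers at 0 in each fraction; 0 of 12 were called in GFP-mid, and 12 of 12 were lower in GFP-high (median -2.95). The germ-cell list summed to 7582, 6432 and 6157 CPM, with 1 of 19 genes lower in GFP-mid, 2 lower in GFP-high and 0 higher in either. These were the GDNF receptor genes Gfra1 (176, 79.9 and 58.5 CPM), lower in both, and Ret (705, 408 and 316 CPM), lower in GFP-high. The fibroblast list summed to 148, 175 and 274 CPM, with 2, 3 and 2 of 20 markers at 0. Of its 19 tested genes, 3 were higher and 1 lower in GFP-mid (median 0.11), and 7 were higher and 0 lower in GFP-high (median 0.66). The part of these lists in the cyclin levels was not tested.

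With UNC0638, Cdkn1a and Ccnd1 were lower than with DMSO at all 3 doses, and only Cdkn1a at 1 µM passed 2-fold. At 0.5 µM, 0 of 9 genes were called, where 3.71% of all genes were. At 1 µM, 1 of 9 was called, where 6.71% of all genes were and 4.12% were lower, a share not far from that of all genes. At 2 µM, 0 of 9 were called, where 7.01% of all genes were. The 3 ratios share the DMSO library.

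Cdkn1a had 117 CPM with DMSO, and at 0.5, 1 and 2 µM it had 76.3, 49.2 and 61.6 CPM. The log2 ratios were -0.62 (-0.81 to -0.44), -1.24 (-1.46 to -1.05) and -0.92 (-1.14 to -0.72). Ccnd1 had 135 CPM with DMSO and 89.4, 71.7 and 93.7 CPM, with ratios of -0.59 (-0.77 to -0.42), -0.90 (-1.09 to -0.73) and -0.52 (-0.70 to -0.34). Both genes were lowest at the middle dose, so neither followed the order of the doses.

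Cdkn2b had 27.3 CPM with DMSO and 18.9, 20.1 and 22.7 CPM, and its counting interval held 0 at 2 µM only. Ccnd2 had 863 CPM with DMSO and 736, 697 and 890 CPM, so at 2 µM it stood at the DMSO level (log2 ratio 0.04, -0.02 to 0.11). Ccnd3 had 266 CPM with DMSO and 226, 223 and 214 CPM, and it alone of the 3 cyclins was lowest at 2 µM. The intervals of its 3 ratios overlapped (-0.35 to -0.12, -0.37 to -0.15 and -0.43 to -0.19). With germ-cell centring their order turned (-0.39, -0.28 and -0.16). Cdkn2a had 9 counts with DMSO and 15, 9 and 13 with the inhibitor, and the intervals of its 3 ratios hold 0. Rb1 had 31.5 CPM with DMSO and 28.1, 33.7 and 32.5 CPM, also with intervals that hold 0.

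Of the G1 to S partners, 0 of 28 were higher and 1 lower at 0.5 µM, 1 was higher and 0 lower at 1 µM, and 1 was higher and 1 lower at 2 µM. Cdkn1c had 17.6 CPM with DMSO and 69.1 and 39.2 CPM at 1 and 2 µM (log2 ratios 1.92 and 1.11), opposite in direction to Cdkn1a. Myc had 14.6 CPM with DMSO and 6.74 and 5.27 CPM at 0.5 and 2 µM (-1.01 and -1.31). Of the 18 genes of the p53 list, 1 was higher and 0 lower at 0.5 µM, 2 were higher and 3 lower at 1 µM, and 1 was higher and 2 lower at 2 µM. Perp was the higher gene at 0.5 and 2 µM (1.47 and 1.17), and Zmat3 (-1.09) and Eda2r (-1.03) were the lower genes at 2 µM; Perp and Eda2r are named after their values were seen. At 1 µM, Bbc3, which encodes the death protein PUMA, had 1.40 and 8.73 CPM (2.02) and Gadd45a, a stress gene, had 16.0 and 34.9 CPM (1.08). Zmat3 had 22.6 and 4.19 CPM (-2.18) and Phlda3 had 57.1 and 27.9 CPM (-1.01). Fas, a death receptor named after its values were seen, had 6.59 and 2.79 CPM, just past the threshold.

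The fibroblast list moved with these libraries. It summed to 3348 CPM with DMSO and to 1196, 508 and 651 CPM at 0.5, 1 and 2 µM. The order of the 4 libraries was the same for Cdkn1a and different for Ccnd1 and Cdkn2b. Of 19 tested fibroblast genes, 11, 18 and 15 were at least 2-fold lower at the 3 doses. The germ-cell list summed to 6503 CPM with DMSO and 7081, 6765 and 5940 CPM, with 0 of 19 called at each dose. The proliferation list had 0 of 20 genes called at each dose, with medians of -0.03, -0.09 and -0.31 and 12, 13 and 18 genes below 0. The part of these lists in the levels of Cdkn1a and Ccnd1 was not tested.

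**Figure D5:**
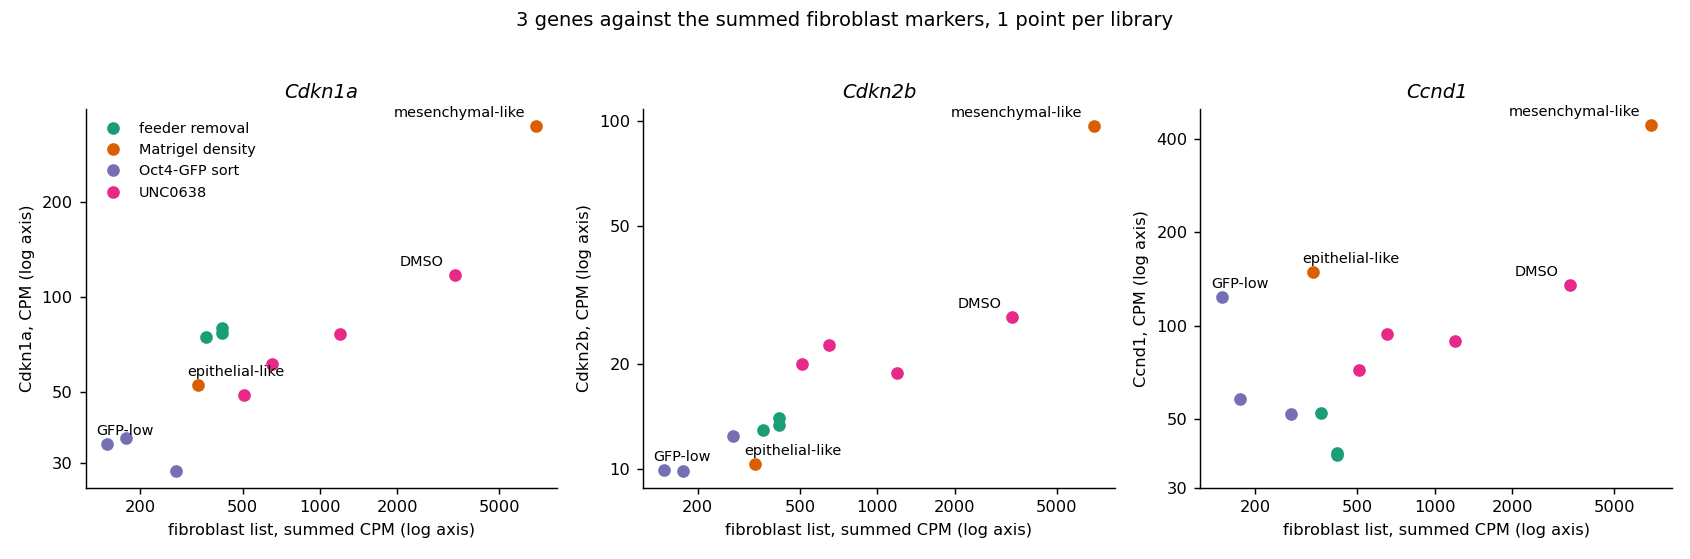
CPM of Cdkn1a, Cdkn2b and Ccnd1 (vertical axes, log scale) against the summed CPM of 20 fibroblast markers (horizontal axes, log scale), with 1 point per library colored by experiment. The mesenchymal-like library, at 6945 CPM of fibroblast markers, is highest in all 3 panels (346, 96.6 and 442 CPM), and the DMSO library, at 3348 CPM, is second for Cdkn1a and Cdkn2b (117 and 27.3 CPM).

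The DMSO and day 0 libraries both came from feeder cultures without the inhibitor, in different experiments, and were compared to show how far such cultures lay apart. Ccnd1 and Ccnd2 were at least 2-fold higher in the DMSO library, 2 of 9 genes, where 19.4% of all genes were called and 12.2% were higher, so the members were called about as often as all genes. Centred on the germ-cell list, Cdkn1a, Cdkn2a and Cdkn2b passed 2-fold as well, which made 5 of 9 members, beside 3834 of 14301 genes. Cdkn2a passed only just (1.01) and rests on 9 and 7 counts, with a counting interval before centring that holds 0 (-0.61 to 2.65). Ccnd1 stood at 38.4 and 135 CPM in the day 0 and DMSO libraries (log2 ratio 1.79, 1.61 to 2.01), and Ccnd2 had 420 and 863 CPM (1.04, 0.97 to 1.11). Cdkn2b (0.92, 0.59 to 1.34) and Cdkn1a (0.60, 0.44 to 0.78) fell short of 2-fold. The Ccnd1 ratio between these cultures was larger than its ratio between the Matrigel densities (1.56), in the sort or at any dose. Cdkn1a and Cdkn2b had larger ratios between the densities (2.69 and 3.11) than between the feeder cultures. Of the 28 G1 to S partners, 2 were higher with DMSO, Cdk6 (3.37 and 9.78 CPM at day 0 and with DMSO) and the activating E2F gene E2f3 (11.7 and 30.3 CPM), and 2 were lower, the cyclin E gene Ccne2 (99.6 and 46.5 CPM) and Cdkn1c (56.1 and 17.6 CPM). Of the 18 genes of the p53 list, 1 was higher with DMSO and 2 were lower. Zmat3 was the higher gene (2.20 and 22.6 CPM at day 0 and with DMSO, log2 ratio 2.88), and Perp (-1.57) and Bbc3 (-1.07) were lower. The Zmat3 ratio was similar to that between the Matrigel densities (2.83). The fibroblast list summed to 415 CPM at day 0 and 3348 CPM with DMSO, and its part in these ratios was not tested.

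The remaining inhibitors were read at low depth. Cdkn1b, which encodes p27, had 7 to 34 counts per library (1.60 to 5.20 CPM) and was called in none of the 9 comparisons. Its interval lay off 0 only in GFP-mid against GFP-low, with 21 and 27 counts (log2 ratio -0.72, -1.92 to -0.15). Cdkn2c had 0 to 19 counts, and changes of 2-fold in either gene would be hard to see at this depth. Cdkn2d had 66 to 273 counts, and its expected count was not whole, within 0.005, in 7 of 12 libraries, which is how reads shared with another gene appear, so its values are uncertain.

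Cdkn2a and Ccnd3 have several transcripts in the deposited tables, and the mean transcript length given there shifts with the mix. For Cdkn2a, with 2 transcripts, the length was 929 bases in 10 of 12 libraries and 891.74 in the mesenchymal-like library. Which of the ARF and p16 transcripts that shift favors is not given in the sources used here, and it rests on 46 counts. For Ccnd3, with 3 transcripts, the length stayed between 1983.86 and 1989.1 bases.

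The genes most like each member were found by the Pearson correlation of log2(CPM + 1) over the 12 libraries, as a description. The search covered 5296 or 5297 genes whose mean was 10 CPM or more and a log2 range of at least 1, for the 6 members that passed the filter and had such a range. For Ccnd1 they were Vdac1 (r = 0.97), Dusp4 (0.95) and 1500003O03Rik (0.95), and for Ccnd2 they were B3gnt1 (0.97), C030046I01Rik (0.96) and Arpc2 (0.96). For Cdkn1a they were Itga5 (0.98), Ecm1 (0.97) and Cryab (0.97), and for Cdkn2b they were Tinagl (0.99), Htra1 (0.98) and Dap (0.98). Itga5, an integrin subunit, had 342 CPM in the mesenchymal-like library and 8.15 to 48.9 CPM in the other 11, and Htra1, a secreted protease, had 213 and 1.76 to 26.6 CPM. For Cdkn2a they were Aes (0.95), Raph1 (0.95) and Rusc2 (0.94). Cdkn1b had no close match, its nearest being LOC100038822 (0.74), Kptn (0.70) and 8030451K01Rik (0.69). The points share experiments, and the mesenchymal-like library was the highest point for all 3 genes like each of Ccnd1, Cdkn1a, Cdkn2a and Cdkn2b, and for C030046I01Rik and Arpc2 of those like Ccnd2.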

How the data were processed

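RNA was sequenced from 12 libraries made with a modified Smart-seq2 procedure, per the labels' protocols. The submitters' processing notes list Trim Galore, RSEM and the mm10 build, without versions. The authors deposited 1 table per library with expected counts per gene, not normalized, per the file headers. Per the file headers, the authors also gave TPM, which accounts for transcript length, and the deposited FPKM values were used only to recompute cyclin shares. The deposited tables also gave other values, the mean transcript length per gene, in bases. The 4 ATAC-seq libraries were not analysed here.

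Expected counts were rounded. CPM were computed with TMM factors (0.912 to 1.07) from edgeR 4.0.16 in R 4.3.3. The filter was a mean of 1 CPM or more. With 1 library per group, each comparison is a log2 ratio of CPM + 1 with a threshold of 2-fold and a 95% Clopper-Pearson counting interval from the read split, and there is no test. Library totals were 4335185 to 12019651 counts. Levels of different genes were compared as TPM, with CPM, counts and FPKM only as alternatives for the cyclin shares and the inhibitor to cyclin ratio. No pair of libraries held identical values.

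The members and lists were chosen with earlier results of these data known. All members were named, along with the 3 genes most like each filtered member with a log2 range of at least 1. List genes could be named by symbol (Cdk4, Cdk6, Cdk2, Ccne1, Ccne2, Rbl1, Rbl2, E2f1, Cdkn1c) or when at least 2-fold with at least 50 counts in the higher library. Ddx4 and Pcna are named as examples of their lists. Other list genes are marked as named after their values were seen. Lists are described by counts and medians. Rhox13 of the germ-cell list was not matched. A list of 12 markers of testis somatic cells summed to 9.78 to 33.2 CPM. The scripts were tested on simulated data. Alternatives were scaling by total counts or by DESeq2 1.42.0 size factors, ratios of deposited TPM, centring on the germ-cell list, pseudocounts of 0.1 and 5, no filter and a filter at 10 CPM. Promoter windows are from RefSeq, GRCm38.p6. Ratios and figures were made in Python 3.11.15 (pandas 2.3.3, numpy 2.4.6, matplotlib 3.10.9, scipy 1.17.1).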

Additional observations from a re-analysis of the deposited data

How the results depend on the processing

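The calls of Ccnd1, Cdkn1a, Cdkn2a and Cdkn2b between the Matrigel densities held under DESeq2 size factors, total counts, the deposited TPM, centring on germ-cell markers and both pseudocounts; a filter at 10 CPM removed Cdkn2a and left 3. Ccnd1 in GFP-high and Cdkn1a at 1 µM UNC0638 were called under every alternative. Ccnd1 in GFP-mid was not: with germ-cell centring 0 members were called there, and with the deposited TPM Cdkn2c was called in its place. The deposited TPM or no filter gave 2 members in GFP-high and no filter gave 2 in GFP-mid, each time adding Cdkn2c. A pseudocount of 0.1 gave 1 member at day 9 (Cdkn2a, 4 counts) and 1 at 2 µM UNC0638 (Cdkn1b, 7 counts). Germ-cell centring gave 5 members for DMSO against day 0, adding Cdkn1a, Cdkn2a and Cdkn2b; it shifted the median of all genes to between -0.17 and 0.46.

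Over all genes, the counts past 2-fold were 326, 372, 1781, 582, 1364, 531, 960, 1003 and 2776, in the order day 4, day 9, density, GFP-mid, GFP-high, 0.5, 1 and 2 µM UNC0638, DMSO against day 0. A pseudocount of 0.1 gave 1031, 1025, 1267, 2150, 1169, 1656 and 1751 at day 4, day 9, GFP-mid, GFP-high and the 3 doses. A pseudocount of 5 gave 17, 30, 1004, 182, 521, 76, 302, 228 and 1299 in the first order, and a filter at 10 CPM gave 29, 84, 680, 280, 622, 96, 303, 285 and 1507; with the higher filter fewer genes were tested. Germ-cell centring gave 976 in GFP-mid. The share of called genes that were higher moved by over 10 points with germ-cell centring: to 44.61% at day 4, 95.89% for density, 95.9% in GFP-mid, 87.1% in GFP-high, 22.56% and 68.16% at 0.5 and 2 µM, and 91.24% for DMSO against day 0. A pseudocount of 5 moved it to 23.33% at day 9, 98.8% for density and 21.05% at 0.5 µM, a pseudocount of 0.1 to 74.36% for density, and a filter at 10 CPM to 26.04% at 0.5 µM.

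Cyclin shares taken from expected counts, which do not correct for length, put Ccnd2 first in all 12 libraries. Its transcript is the longest of the 3. By TPM, Ccnd2 was already first outside the feeder-removal experiment, so only the order within that experiment changed at the top. The Ccnd2 shares were 56.3%, 53.05%, 56.3% in the feeder-removal experiment, 68.6% and 60.1% in the density experiment, 73.4%, 73.7%, 71.5% in the sort, and 68.3%, 70.0%, 70.3%, 74.3% in the inhibitor experiment. The Ccnd3 shares were 38.5%, 42.1%, 37.5%, then 19.97% and 16.8%, then 17.9%, 19.99%, 21.8%, then 21.0%, 21.5%, 22.5%, 17.9%. The Ccnd1 shares were 5.15%, 4.83%, 6.12% in the feeder-removal experiment, 23.1% in the mesenchymal-like and 8.70% in the GFP-low library. In the mesenchymal-like library Ccnd1 thus stood above Ccnd3 (16.8%) by counts, so its smallest share there holds for TPM only. Inhibitors per cyclin on the CPM scale were 0.155, 0.141, 0.127, then 0.0667 and 0.249, then 0.0552, 0.0817, 0.0887, then 0.134, 0.115, 0.0933, 0.0879. Cdkn1c is left out of these sums too. No paired analysis was possible because each RNA group has 1 library. Depth limits Cdkn1b, Cdkn2a and Cdkn2c most.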
